A study of Mus musculus with 18 samples.

Results

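Nuclear genes for subunits of the respiratory chain and of ATP synthase were followed through 18 lung metastases. The members were chosen by symbol alone: Nduf genes of the a, b, c, s and v classes for complex I, Sdha to Sdhd for complex II, Uqcr genes for complex III, Cox4 to Cox8 genes for complex IV and Atp5 genes for complex V, without symbols that contain "-ps". This gave 88 of 48952 genes, with 40 in complex I, 4 in complex II, 8 in complex III, 19 in complex IV and 17 in complex V. The rule also takes in the processed pseudogenes Ndufa11b, Ndufb4c, Ndufs6b and Cox6c2. It places Ndufa4, a protein now counted as a subunit of cytochrome c oxidase, with complex I, and it leaves out the complex III gene Cyc1.

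The respiratory chain sits in the inner mitochondrial membrane. Complex I takes electrons from NADH and complex II from succinate, complex III passes them to cytochrome c, complex IV hands them to oxygen, and ATP synthase (complex V) makes ATP from the proton gradient that results. Most subunits are encoded in the nucleus and imported, while a small core of complexes I, III, IV and V is encoded in mitochondrial DNA. Several small subunits of complex IV exist as paired isoforms, with one gene used widely and its partner in particular tissues, such as Cox6a2, Cox7a1 and Cox8b in heart and skeletal muscle and Cox4i2 in lung.

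The lesions were formed by AT3, a single cell line that stems from a mammary tumour of MMTV-PyMT mice; the cells carried GFP and mCherry, grew in the mammary fat pad and spread to the lung. All hosts lacked Il2rg. Their strain label reads Rag2-/-IL2rg-/-, but Rag1-/-IL2rg-/- stands in the growth protocol; age and sex are not given in the sources used here. Mice NK1 (3 lesions) and NK2 (4 lesions) had received 60000 activated murine NK cells by vein on day 11, and mice KO1 (5 lesions), KO2 (4 lesions) and KO3 (2 lesions), labelled Ctrl, had received PBS. Each lesion was cut from a frozen section by laser capture, 2 ng of its RNA entered a library kit made for single cells, and a lesion is written below as mouse and lesion number. Total counts per lesion were 2964241 to 11798853, lowest in NK1-3. The mitochondrial ribosomal RNA mt-Rnr2 alone took 12.1% to 68.7% of them, with more than 40% in all 3 lesions of NK1 and in KO1-2, KO1-5 and KO3-2. The captured tissue was mixed. The 12 epithelial and mammary tumour markers, with 8 to 11 detected in a lesion, were summed as CPM (counts per 1000000 of the scaled library). They summed to 130 to 8433 CPM in NK lesions and 128 to 1396 CPM in Ctrl lesions. Among them the keratin genes Krt8 and Krt18 had 2.76 to 106 CPM and 19.7 to 175 CPM. Krt14 had a count in NK1-2 only, and 10 alveolar epithelial markers summed to 245 to 3680 CPM. NK cell markers summed to 12.2 to 76.3 CPM in NK1-1 and the lesions of NK2, highest in NK1-1, and to 0.575 to 10.3 CPM in Ctrl lesions. NK1-2 (9.02 CPM, 4 of 10 markers detected) and NK1-3 (5.14 CPM, 3 of 10) lay within the Ctrl range, so these markers did not set them apart as labelled; KO1-1 and KO1-3 had 9 of 10 detected. Neutrophil markers summed to 131 to 869 CPM in NK lesions and 216 to 5519 CPM in Ctrl lesions. The 869 CPM were those of NK1-1, where Ltf alone had 750.5 CPM. Of the 10 neutrophil markers, 9 had a lower value with NK cells (median log2 fold change -3.03), beside 8745 of 16917 genes. With edgeR 0 of the 10 had an adjusted p under 0.05. In the same order of groups, red blood cell markers summed to 240 to 2183 and 117 to 9126 CPM. Macrophage markers summed to 559 to 4553 and 1079 to 3698 CPM, and airway markers to 14.5 to 25500 and 8.98 to 16050 CPM.

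Across the lesions the members held 0.455% to 1.08% of the counts that did not come from the mitochondrial genome, with the low end in KO1-5 and the high end in KO2-4. Of the 88, 86 had a count in some lesion. The testis-type isoform genes Cox7b2 and Cox8c had 0 counts in all 18 lesions, which allows 0.173 to 2.20 CPM in a lesion (3 counts of its library; counting error only).

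Between genes, levels were compared as mean CPM per kilobase of exon over the 18 lesions. Cox4i1, the widely expressed isoform of cytochrome c oxidase subunit 4 (chromosome 8, 120668222 to 120674207, GRCm38), led the list with 411 CPM per kilobase. The complex III hinge protein gene Uqcrh followed with 283, then Ndufb11 of complex I with 248. Exons of Cox4i1 and Ndufb11 overlap those of Emc8 and Rbm10 on the other strand, in this order. Sdhd, the small membrane anchor of succinate dehydrogenase, led complex II with 70.9 and Atp5c1, the gamma subunit of the rotating stalk, led complex V with 121. The same 5 genes led their complexes when the median transcript length replaced the exon length. Median levels per kilobase of exon were 12.3 in complex I, 25.8 in complex II, 38.9 in complex III, 20.7 in complex IV and 23.9 in complex V. This order depends on the length used. With the median transcript length, the middle gene of complex V was Atp5l with 76.8, above Sdhd with 70.9. The middle gene of complex IV was Cox7b with 25.1. Exons of Atp5l cover 6443 bases, while its median transcript has 544. Within complex IV the spread ran from 0 to 411.

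The members differed in how evenly they were expressed. Among the 81 with at least 100 counts in all, 37 had a highest lesion under 2 times their median lesion and 23 had one over 3 times it. This measure leaves out low lesions: among the 37, Ndufs8 ran from 1.47 to 88.8 CPM and Uqcrfs1 from 0.954 to 33.3 CPM. Cox4i1 was among the most even, at 450 to 843 CPM with a median of 628 CPM. Sdha, the flavoprotein of complex II, ran from 22.2 to 85.7 CPM around a median of 63.4 CPM. At the other end, the highest lesion of Uqcr10 was 12.6 times its median and that of Ndufa3 40.9 times. The isoform genes Cox6a2 (61.5 times) and Cox7a1 (a median of 0 CPM) were the least even by this measure. The median of Cox6a2 was 0.225 CPM, where 3 counts make 0.173 to 2.20 CPM in a lesion. Its ratio thus rests on a value near the floor and is not comparable with the others.

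NK cell transfer was compared with PBS on counts summed per mouse, 2 mice against 3, with the quasi-likelihood test of edgeR across 16917 genes. No respiratory chain gene passed. Of the 83 members tested, 0 had an adjusted p under 0.05, as did 0 of all genes (0%), and DESeq2 called 0 of the 83 against 21 genes in all (0.127%). At an unadjusted p under 0.05 edgeR picked out 1 member, Uqcr10, where 2.52% of all genes were picked out, 0.969% of all with a lower value. Ndufa11b, Ndufs6b, Cox7b2, Cox8b and Cox8c had too few counts to be tested. The common dispersion had a coefficient of variation of 64.9%, and with 2 mice against 3 an exact one-sided permutation test cannot go below 0.1. In captured tissue, fewer cells of a type and less RNA per cell cannot be told apart.

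The direction of these differences turned when lesion NK1-1 alone was left out, but not when its whole mouse was. With all lesions, 54 of 83 members had a higher value with NK cells (48.3% of all genes did), and the median log2 fold change was 0.13 against -0.03 over all genes. Without NK1-1, 33 of 82 had a higher value (47.3% of all genes) and the median was -0.11. Without the whole of mouse NK1, which left NK2 as the only NK mouse, 50 of 83 members had a higher value. Their median was then 0.10, against -0.08 over all genes. Taking NK1-1 out lowered the fold change of 68 of 82 members, while it lowered that of 43.9% of all genes. By complex, the median went from 0.08 to -0.14 in complex I, from 0.19 to 0.03 in complex II, from -0.01 to -0.18 in complex III, from 0.03 to -0.26 in complex IV and from 0.22 to 0.05 in complex V. Complex V had 15 of 17 positive values with NK1-1 and 12 of 17 without it, whereas complex III went from 4 of 8 to 0 of 8. Of 33 named members with a value in both fits, 8 turned sign without NK1-1 and 19 more moved by over 1.5 times. NK1-1 supplied 45548 counts of members to its mouse, against 9641 from NK1-2 and 6506 from NK1-3.

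**Figure D1:**
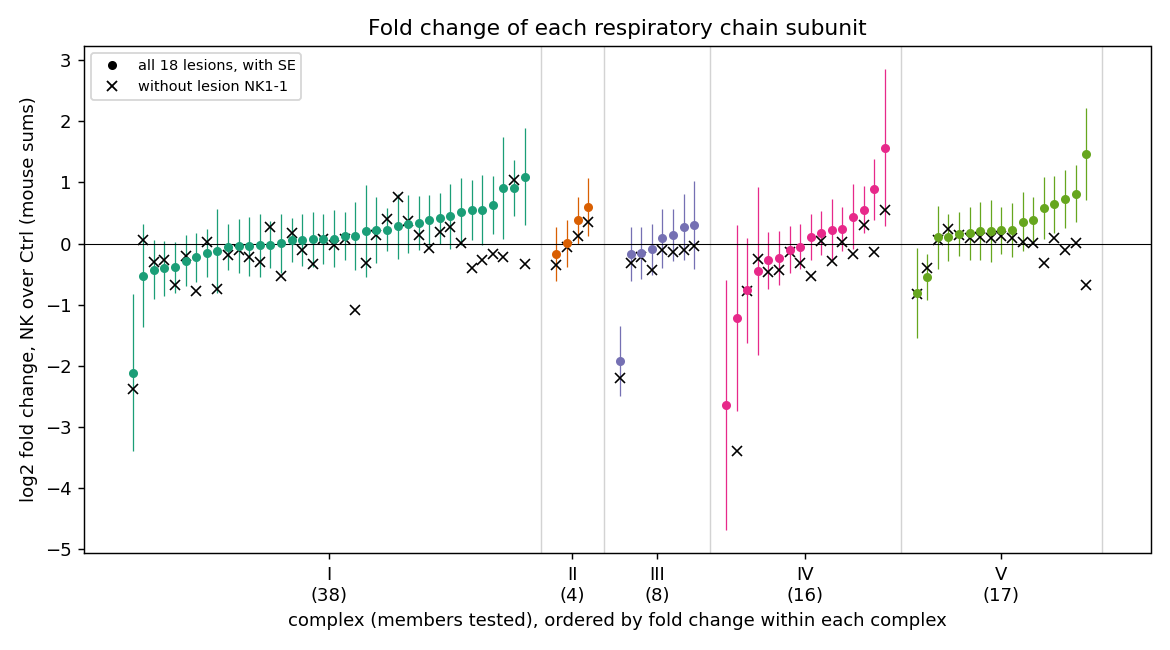
Log2 fold change of NK over Ctrl (vertical axis, from counts summed per mouse) for the 83 tested members, ordered within complexes I to V. Coloured points are fits with all 18 lesions with standard errors, crosses the same fit without lesion NK1-1, where 68 of 82 members have a lower value.

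Lesion by lesion, each member was set against its own mean over the 18 lesions, and the median of these log2 deviations was taken over the 80 members that passed the filter for lesions. NK1-1 stood highest at 0.56 (all genes 0.11), followed by KO2-4 at 0.49 (0.03), KO2-2 at 0.37 (0.06) and KO2-1 at 0.35 (-0.03). NK1-3 (-0.49) and NK1-2 (-0.43), from the same mouse as NK1-1, were lowest, ahead of KO1-5 (-0.37, all genes -0.23), KO3-2 (-0.27, all genes -0.39) and KO3-1 (-0.26, all genes 0.08). In NK1-3 all genes had a median of -0.48, so the members there lay where other genes did, and in KO3-2 they lay above other genes, while in NK1-2 all genes had -0.10. The NK lesions spanned -0.49 to 0.56 with a median of 0.08 and the Ctrl lesions -0.37 to 0.49 with a median of -0.01, so that the groups overlapped along nearly their whole range.

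**Figure D2:**
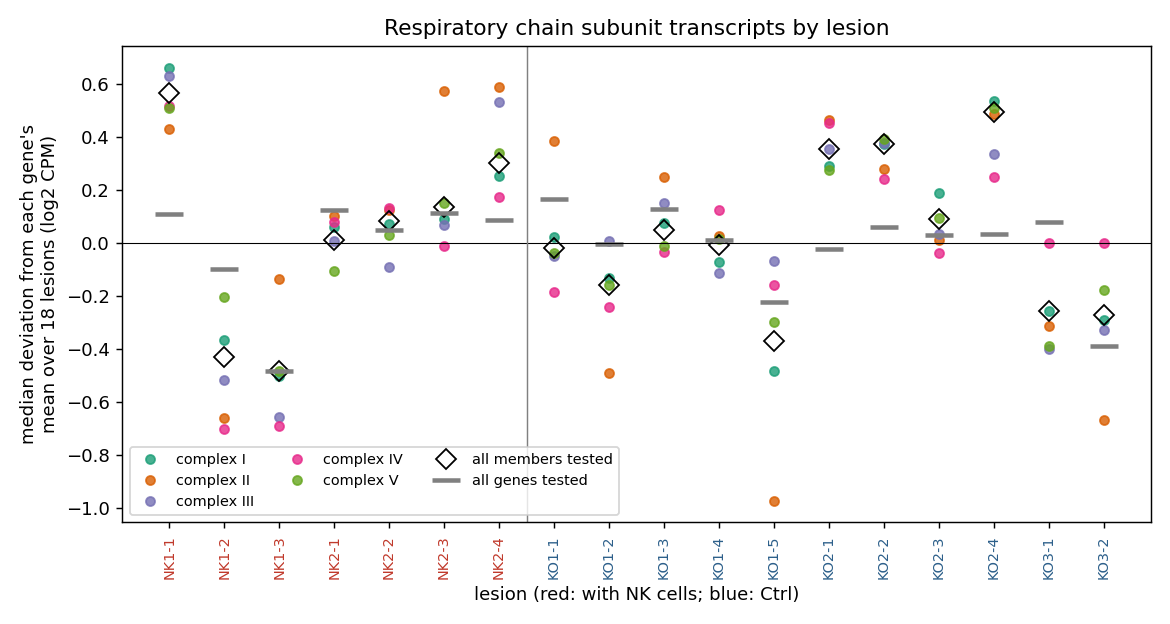
Median log2 CPM deviation from each gene's mean over 18 lesions (vertical axis) in each lesion (horizontal axis; red labels with NK cells, blue labels Ctrl). Dots are complexes I to V, diamonds all 80 members tested and grey bars all 15741 genes; NK1-1 at 0.56 and NK1-3 at -0.49 mark the ends, both in mouse NK1.

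Medians of the 5 complexes lay close together in some lesions. In NK1-1 the 5 medians were 0.43 to 0.66, and in KO2-2 they were 0.24 to 0.39. KO1-5 was the most divided lesion, with -0.97 in complex II and -0.07 in complex III.

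Transcripts of several other cell types differed in NK1-1. It was the highest lesion for 26 of 80 members (32.5%), against 13.1% of all genes. In NK1-1, 14 of 16 heart and striated muscle markers had counts, with Acta1 and Myl2 at 0, and they summed to 442 CPM against 2.52 to 84.4 CPM in the other NK lesions and 1.15 to 42.8 CPM in Ctrl lesions. Myoglobin (Mb) had 143 CPM there, 7.94 CPM in KO2-1 and 0 in the other 16 lesions. Fat cell markers, with 10 of 11 detected, Ucp1 at 0 and Cidea at 5.71 CPM, summed to 1807 CPM in NK1-1 and to at most 11.1 CPM elsewhere. KO2-1, with 13 of 16 muscle markers, held the 42.8 CPM, while KO2-2 and KO2-4 held 7.72 and 1.41 CPM, with higher medians of the members than KO2-1. NK1-1 also had the highest median deviation of all lesions for NK cell markers (3.04) and hypoxia-linked genes (1.56), the second highest for airway markers (4.77, after 5.81 in NK1-3), and the lowest for alveolar (-2.32) and endothelial markers (-2.42). The part of these cells and genes in the levels of the members was not tested.

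Across the 5 mice, the test over 18 lesions asked whether mice differed beyond the spread of their own lesions. It called 2 of 80 members (2.5%) with edgeR, Ndufa3 and Cox4i2, where 6.8% of all genes were called. At an unadjusted p under 0.05 there were 21 of 80, beside 26.8% of all genes. The test says nothing of treatment.

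Ndufa3 encodes a small accessory subunit of complex I (chromosome 7, 3617373 to 3620327). It had 0, 3.17 and 13.9 CPM as lowest, median and highest of the NK lesions. In Ctrl lesions these were 1.03, 3.93 and 133 CPM. The high value was that of KO3-2 alone, with 557 of the gene's 1085 counts. The edgeR adjusted p between mice was 0.0158, and it was 0.646 without KO3-2. NK over Ctrl was -2.11 ± 1.29 (SE) on the log2 scale with that lesion and 0.40 without it. Ndufa3 exons overlap those of Tfpt on the other strand, which had 0.716 CPM in KO3-2. That lesion also held the highest sum of neutrophil markers (10 of 10 detected, 5519 CPM against 131 to 2782 CPM in the others), and their part in the value was not tested.

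Cox4i2, the lung and hypoxia-linked isoform of subunit 4 of complex IV (chromosome 2, 152754173 to 152765037), was low in 1 mouse. NK1-1, NK1-2 and NK1-3 had 1.59, 1.23 and 0 CPM. The 4 lesions of NK2 had 7.12 to 13.6 CPM and the 11 Ctrl lesions 3.49 to 28.8 CPM, all above those of NK1. The edgeR adjusted p between mice was 0.0457, and leaving out single lesions brought it above 0.05 in 15 of 18 cases (0.0143 to 0.0756). NK cell transfer gave -0.77 ± 0.85 (SE) on the log2 scale, and 0.06 without mouse NK1. As a share of the counts of both subunit 4 genes, Cox4i2 made up 0.188% in NK1-1 (exact 95% binomial interval 0.0901 to 0.345, counting error only), 0.268% in NK1-2 (0.0553 to 0.781, from 3 counts) and 0 of 1139 counts in NK1-3 (0 to 0.323). In lesions of the other 4 mice it made up 0.640% to 5.22%, and the interval of NK1-2 reaches into that range.

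Vessel-wall transcripts were also uneven in those lesions. Endothelial markers had their lowest median deviations in NK1 (-2.42, -1.82 and -2.16, against -1.18 to 1.18 elsewhere), with 8 to 10 of 10 detected and Pecam1 at 2.54, 3.28 and 0 CPM against 10.8 to 37.6 CPM elsewhere. Kdr went the other way in NK1-3, with 315.6 CPM against 4.60 to 55.3 CPM in the other lesions. The 12 smooth muscle and pericyte markers summed to 139, 32.0 and 54.3 CPM in the lesions of NK1 and to 28.6 to 144 CPM elsewhere, with no common direction in NK1: Rgs5 (3.97 CPM) and Kcnj8 (6.34 CPM) had their highest values of all lesions in NK1-1, and Higd1b was at 0 in 6 lesions, the 3 of NK1 among them. Their part in the low Cox4i2 values was not tested.

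**Figure D3:**
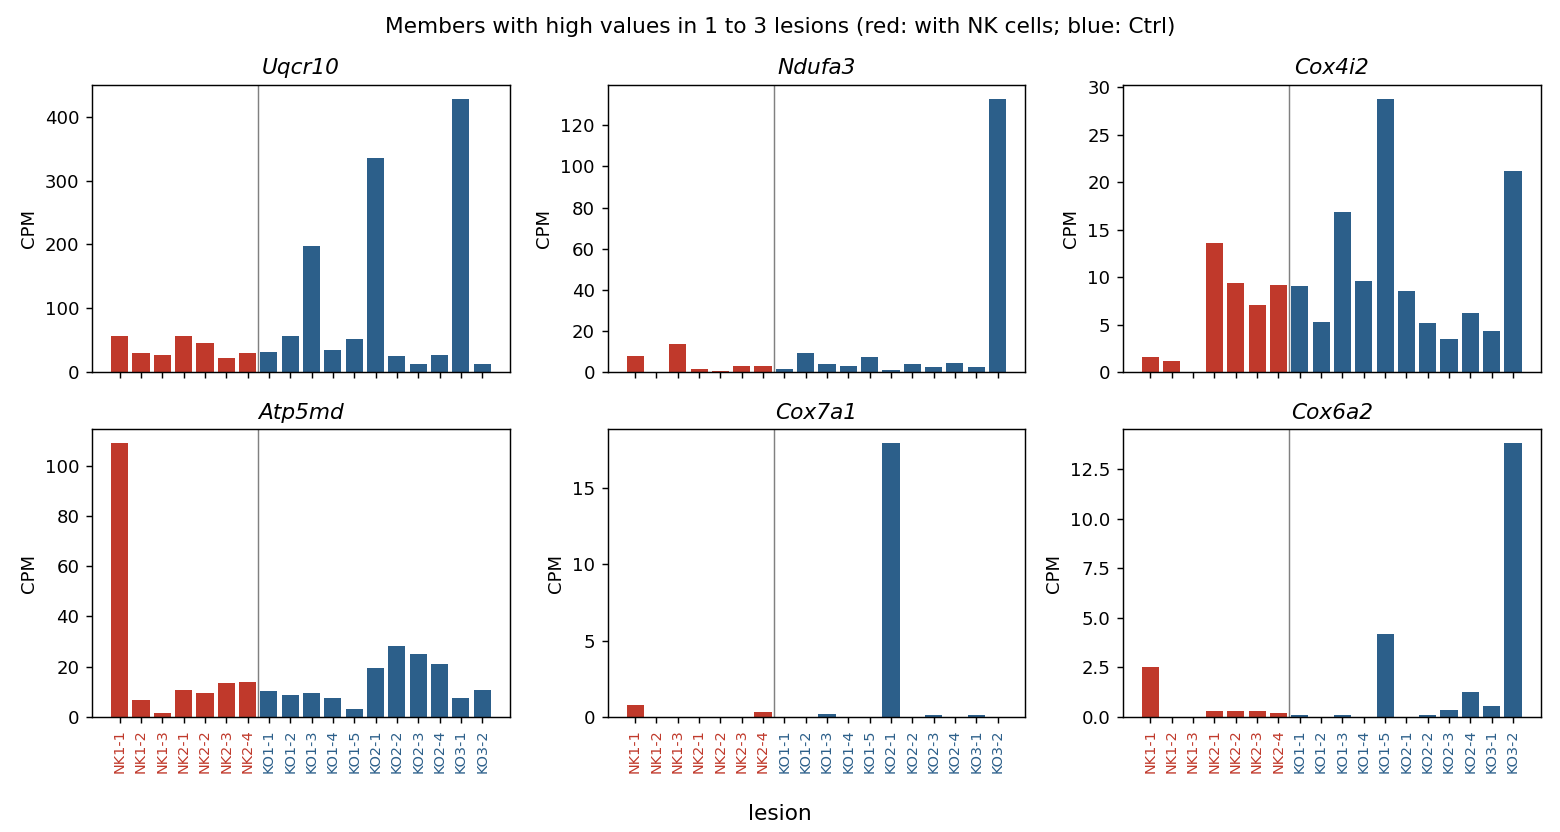
CPM (vertical axes, linear, from 0) of 6 members in each lesion (horizontal axes; red bars with NK cells, blue bars Ctrl). Uqcr10 is high in KO1-3, KO2-1 and KO3-1, Ndufa3 and Cox6a2 in KO3-2, Atp5md in NK1-1 and Cox7a1 in KO2-1, while Cox4i2 is low in the 3 lesions of NK1.

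In complex III, Uqcr10 had the smallest p of all members. It encodes a short subunit that holds the complex together near cytochrome c1 (chromosome 11, 4701973 to 4704342). The NK lesions had 21.9, 31.1 and 57.6 CPM as lowest, median and highest. The Ctrl lesions had 13.4, 35.4 and 428 CPM. A single lesion in each Ctrl mouse was high: 198 CPM in KO1-3, 335 CPM in KO2-1 and 428 CPM in KO3-1, while the other 8 Ctrl lesions had 13.4 to 57.6 CPM and lay within or near the NK range. Summed per mouse, NK mice had 43.0 ± 2.76 CPM (SD, n = 2) and Ctrl mice 163 ± 108 CPM (n = 3), with no overlap.

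For Uqcr10, NK over Ctrl came to -1.92 ± 0.57 (SE) on the log2 scale (edgeR, unadjusted p = 0.0101, adjusted p = 0.9998). Adjusted p was 0.285 with DESeq2 and 0.0339 with edgeR when no filter on low counts was used, a fit that called 224 genes. The difference was -0.66 with equal weight for all lesions and -0.75 without KO3-1. The unadjusted p rose above 0.05 when KO1-3, KO2-1 or KO3-1 was left out. The other 7 members of complex III gave -0.17 to 0.30. Among them were Uqcrfs1, the Rieske iron-sulphur protein, with 0.30 ± 0.71, the ubiquinone-binding protein gene Uqcrb with 0.27 ± 0.54, and Uqcr11 with -0.17 ± 0.44. Without NK1-1 these were -0.04, -0.11 and -0.32. Uqcrh gave -0.10 ± 0.42 (0.23 without KO3-2, -0.43 without NK1-1), with its highest value, 946 CPM, in KO3-2 and 198 to 570 CPM in the others.

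Complex II joins the citric acid cycle to the chain. Sdhd had 43.0, 128 and 146 CPM as lowest, median and highest in NK lesions and 32.6, 71.1 and 113 CPM in Ctrl lesions. Its mouse sums did not overlap, at 116 ± 5.96 CPM (n = 2) and 76.3 ± 36.6 CPM (n = 3), but NK1 with 111.9 CPM lay close to KO2 with 110.3 CPM. NK1-1 gave NK1 897 counts of Sdhd, against 105 from NK1-2 and 174 from NK1-3. The log2 difference was 0.60 ± 0.48 (edgeR adjusted p = 0.9998). Ndufa7, Ndufb10, Uqcrb and Atp5g3 also had both NK mice above every Ctrl mouse, and Uqcr10 and Atp5g1 had both below; Ndufb10 was named after its values were seen. That is 5 of 83 members above and 2 below, where 7.94% and 6.86% of all genes were above and below. Sdhc, the other membrane anchor, gave 0.38 ± 0.38, the iron-sulphur subunit Sdhb -0.17 ± 0.44 and the catalytic Sdha 0.01 ± 0.38. Without NK1-1 the values were 0.36 for Sdhd, 0.12 for Sdhc, -0.35 for Sdhb and -0.06 for Sdha.

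In complex I, 24 of 38 tested members had positive values and 0 passed. Ndufa7, an accessory subunit, had the smallest p there (0.92 ± 0.46, edgeR adjusted p = 0.9998). Its NK lesions had 7.50, 17.4 and 85.3 CPM and its Ctrl lesions 7.90, 11.9 and 42.0 CPM as lowest, median and highest. High values came from single lesions of both NK mice, 48.9 CPM in NK1-1, 81.6 CPM in NK1-2 and 85.3 CPM in NK2-4, and the groups overlapped by lesion.

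Ndufb4 gave 1.09 ± 0.79 and -0.34 without NK1-1, where it had 13.2 CPM against at most 4.29 CPM in the other lesions. Ndufb11, the member of complex I with the highest level per kilobase, gave -0.40 ± 0.45, and Ndufs8, an iron-sulphur protein of the catalytic core, -0.39 ± 0.41; without NK1-1 these were -0.27 and -0.68. Ndufa4 had 205 CPM in NK1-1, 21.2 to 150 CPM in the other lesions, and gave 0.55 ± 0.57 with NK1-1 and -0.27 without it. Its hypoxia-induced relative Ndufa4l2 had 0 to 8.75 CPM and made up 0 to 13.2% of the counts of the pair, with the highest share in KO1-4 (exact 95% interval 10.5 to 16.2). NK and Ctrl lesions overlapped for this pair. Ndufa4l2 exons overlap those of Shmt2 on the other strand, which had 817 counts in KO1-4 against 76 of Ndufa4l2. The part of Shmt2 reads in these shares was not tested.

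In complex IV, 8 of 16 tested members had positive values. Cox4i1 had 458 to 843 CPM in NK lesions and 451 to 817 CPM in Ctrl lesions (0.17 ± 0.36). The supercomplex assembly gene Cox7a2l gave 0.55 ± 0.39 (0.30 without NK1-1) and the small subunit gene Cox7b 0.89 ± 0.50, the latter -0.14 without NK1-1, where it reached 87.9 CPM. Of the widely used partners, Cox6a1 gave -0.28 ± 0.47, Cox6b1 -0.05 ± 0.37, Cox7a2 0.11 ± 0.38 and Cox8a -0.24 ± 0.45. Without NK1-1 these were -0.47, -0.32, -0.53 and -0.44, and Cox4i1 gave 0.05.

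The isoforms known from heart and skeletal muscle showed up in single lesions that were not the same for each gene. Cox7a1 had 210 of its 224 counts in KO2-1, or 17.9 CPM, and at most 0.793 CPM elsewhere. There it made up 23.0% (exact 95% interval 20.3 to 25.9) of the counts of the Cox7a1 and Cox7a2 pair, and 0 to 0.945% in the other lesions. Cox8b had 19 of its 21 counts in NK1-1, where it was 18.4% (11.5 to 27.3) of the pair with Cox8a. KO2-1 and NK1-1 were the lesions with the most muscle markers, yet Cox7a1 had 5 counts in NK1-1 and Cox8b 1 count in KO2-1.

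Cox6a2 differed from both. It had 58 of its 124 counts in KO3-2 (13.8 CPM), where it made up 52.7% (43.0 to 62.3) of the pair with Cox6a1, and 4.18 CPM in KO1-5 and 2.54 CPM in NK1-1. KO3-2 had 3 of 16 muscle markers, summing to 21.9 CPM. These were Tnni3 (83 counts), Tnnc1 (6 counts) and Myh7 (3 counts), while the others, Mb, Myh6 and Ckm among them, were at 0. Cox6a2 exons overlap those of Itgad on the other strand, and Itgad had 0 CPM in KO3-2. The sperm-linked isoform Cox6b2 had 46 counts in all and at most 3.12% of its pair. No isoform gene passed the test of NK against Ctrl with edgeR (adjusted p = 0.9998 for Cox4i2, Cox6a2, Cox6b2, Cox7a1 and Ndufa4l2). Lower values with NK cells were seen in 5 of 5 tested, beside 8745 of 16917 genes. Cox8b, with too few counts to be tested, went the other way, with 20 of its 21 counts in NK lesions. The sign turned under at least 1 alternative for Cox4i2, Cox6a2, Cox6b2 and Ndufa4l2. Cox7a1 (-2.64 ± 2.05) had a value in only 16 of 33 alternatives, none of them without NK1-1, and gave -0.20 in the authors' normalized table.

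In complex V, Atp5f1, which encodes a subunit of the peripheral stalk, gave 0.82 ± 0.46, and 0.01 without NK1-1. Atp5md, a small membrane subunit tied to dimers of the enzyme, had 1.47, 10.6 and 109 CPM as lowest, median and highest in NK lesions, the highest being NK1-1. The 11 Ctrl lesions had a median of 10.4 CPM, and all lay far below NK1-1. NK over Ctrl was 1.46 ± 0.75 on the log2 scale with NK1-1 and -0.68 without it. Atp5k, which encodes the e subunit, gave -0.81 ± 0.74 (0.01 without KO3-2), with 29.8 CPM in KO3-2 against at most 7.34 CPM in NK lesions. Atp5md exons overlap those of Taf5 on the other strand, which had 32.7 CPM in NK1-1 and 6.92 to 29.9 CPM elsewhere.

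Atp5g1, Atp5g2 and Atp5g3 encode the same mature c subunit, the proton-carrying ring of ATP synthase, and differ in the import signal and in the promoter. Their promoters are shown because the balance of these genes varied between lesions, with those of Cox7a2 and its muscle partner Cox7a1, which differed in how many lesions held them. Each line gives the 250 bases before the RefSeq start of the gene on the gene's strand (GRCm38.p6). Capitals mark a match to the NRF1 motif (GCGCA, any base, then GCGC), searched on both strands. In the order of the lines the windows are chr11:96075632-96075881 (minus strand), chr15:102671048-102671297 (minus), chr2:73911327-73911576 (minus), chr9:79759854-79760103 (minus) and chr7:30183921-30184170 (plus).
Atp5g1: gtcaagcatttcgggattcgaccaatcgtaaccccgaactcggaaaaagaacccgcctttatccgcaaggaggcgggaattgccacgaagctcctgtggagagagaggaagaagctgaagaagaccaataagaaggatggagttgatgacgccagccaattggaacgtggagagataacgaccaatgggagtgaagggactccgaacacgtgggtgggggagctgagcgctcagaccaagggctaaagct
Atp5g2: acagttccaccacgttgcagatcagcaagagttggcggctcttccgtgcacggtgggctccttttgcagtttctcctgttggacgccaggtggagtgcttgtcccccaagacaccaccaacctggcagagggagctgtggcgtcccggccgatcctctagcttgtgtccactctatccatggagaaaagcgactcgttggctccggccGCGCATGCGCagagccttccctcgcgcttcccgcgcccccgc
Atp5g3: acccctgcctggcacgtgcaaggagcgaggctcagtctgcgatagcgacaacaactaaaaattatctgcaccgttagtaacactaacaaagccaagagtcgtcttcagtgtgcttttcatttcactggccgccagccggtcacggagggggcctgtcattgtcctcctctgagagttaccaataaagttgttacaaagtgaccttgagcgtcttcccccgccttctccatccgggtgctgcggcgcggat
Cox7a2: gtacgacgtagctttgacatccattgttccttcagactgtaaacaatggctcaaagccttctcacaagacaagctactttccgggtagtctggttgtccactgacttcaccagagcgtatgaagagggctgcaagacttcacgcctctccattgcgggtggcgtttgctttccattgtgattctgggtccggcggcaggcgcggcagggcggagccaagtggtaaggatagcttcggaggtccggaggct
Cox7a1: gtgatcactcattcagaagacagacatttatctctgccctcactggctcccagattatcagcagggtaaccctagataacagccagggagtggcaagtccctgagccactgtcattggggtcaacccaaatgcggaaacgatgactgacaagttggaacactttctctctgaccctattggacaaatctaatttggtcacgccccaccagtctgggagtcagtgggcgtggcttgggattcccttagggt

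Of these windows, only that of Atp5g2 held the NRF1 motif, and none held the motif CCGGAAG of ETS factors. Over the 67 members with a window in the table, 13 (19.4%) held the NRF1 motif, beside 4.23% of 27025 genes, and 12 (17.9%) held the ETS motif on either strand, beside 7.83%. By complex, the NRF1 motif stood in 6 of 32 windows of complex I, 2 of 3 of complex II, 0 of 5 of complex III, 1 of 13 of complex IV and 4 of 14 of complex V. Windows of Sdhd, Cox6a1 and Atp5h held both motifs. A match describes letters in the window and is no measure of binding.

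The 3 c subunit genes took shares of their summed counts that varied by lesion. These are shares of raw counts, which favour the longer Atp5g1 message: per kilobase of exon the mean levels were 24.7 CPM for Atp5g1, 31.6 for Atp5g2 and 32.1 for Atp5g3. Of the counts, Atp5g1 took the most in 16 of 18 lesions, at 38.4% to 86.9%. In KO3-2 it took 86.9%, with 265 CPM against 13.4 CPM for Atp5g2 and 26.5 CPM for Atp5g3. By counts Atp5g3 led in NK1-1 with 53.4% (149 CPM) and Atp5g2 in NK1-3 with 42.7%, the latter of 143 counts. By mouse, Atp5g1 had 96.8 ± 21.0 CPM with NK cells (n = 2) and 141 ± 27.8 CPM without (n = 3; log2 difference -0.54 ± 0.37), Atp5g2 gave 0.20 ± 0.47 (0.11 without NK1-1) and Atp5g3 0.64 ± 0.46, or 0.09 without NK1-1.

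**Figure D4:**
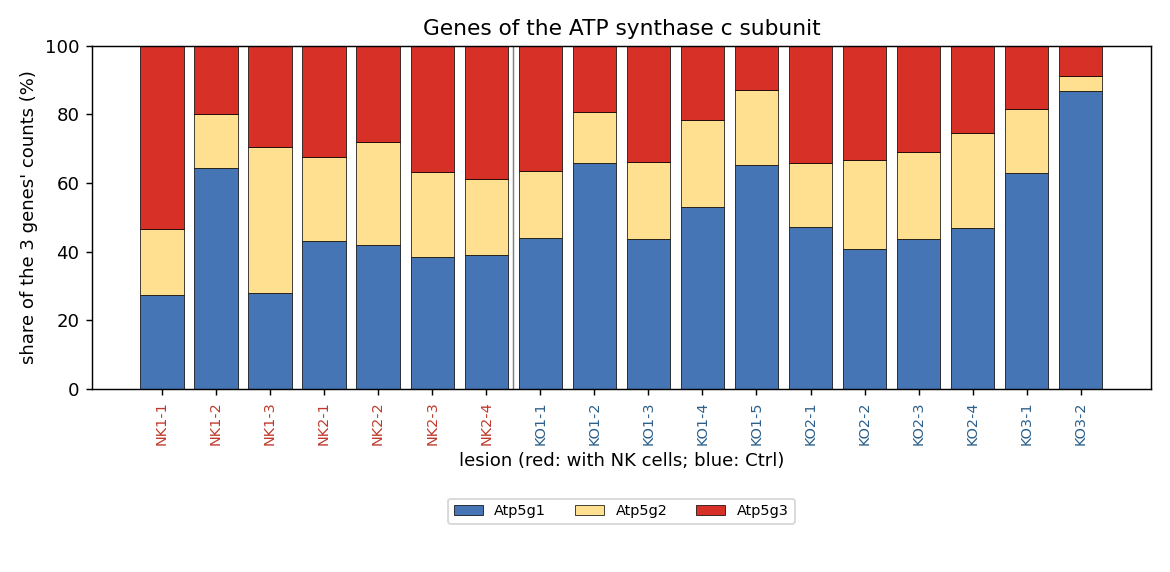
Share of the summed counts of Atp5g1, Atp5g2 and Atp5g3 (vertical axis, percent) in each lesion (horizontal axis; red labels with NK cells, blue labels Ctrl). Atp5g1 takes 86.9% in KO3-2, and Atp5g3 takes 53.4% in NK1-1.

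The partners of these subunits made in the mitochondrion followed another order. The 13 mRNAs of the mitochondrial genome summed to 3485 to 6195 CPM in the 4 lesions of KO2, 3 of which had high nuclear members, and to 83290 CPM in KO1-5, where they were low. KO1-2 had 46120 CPM, and the 7 NK lesions 4634 to 13550 CPM. Nuclear members summed to 3951 to 7224 CPM in NK lesions and 3545 to 6567 CPM in Ctrl lesions. Between mice, 8 of 13 mitochondrial mRNAs were called by edgeR (6.8% of all genes), against 2 of 80 nuclear members. With NK cells 1 of 13 had a higher value, with a median of -0.37, and 0 passed. The mt-Rnr2 share was 68.7% in KO1-5, 58.3% in KO1-2 and 12.1% to 24.4% in KO2, and its part in these values was not tested.

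**Figure D5:**
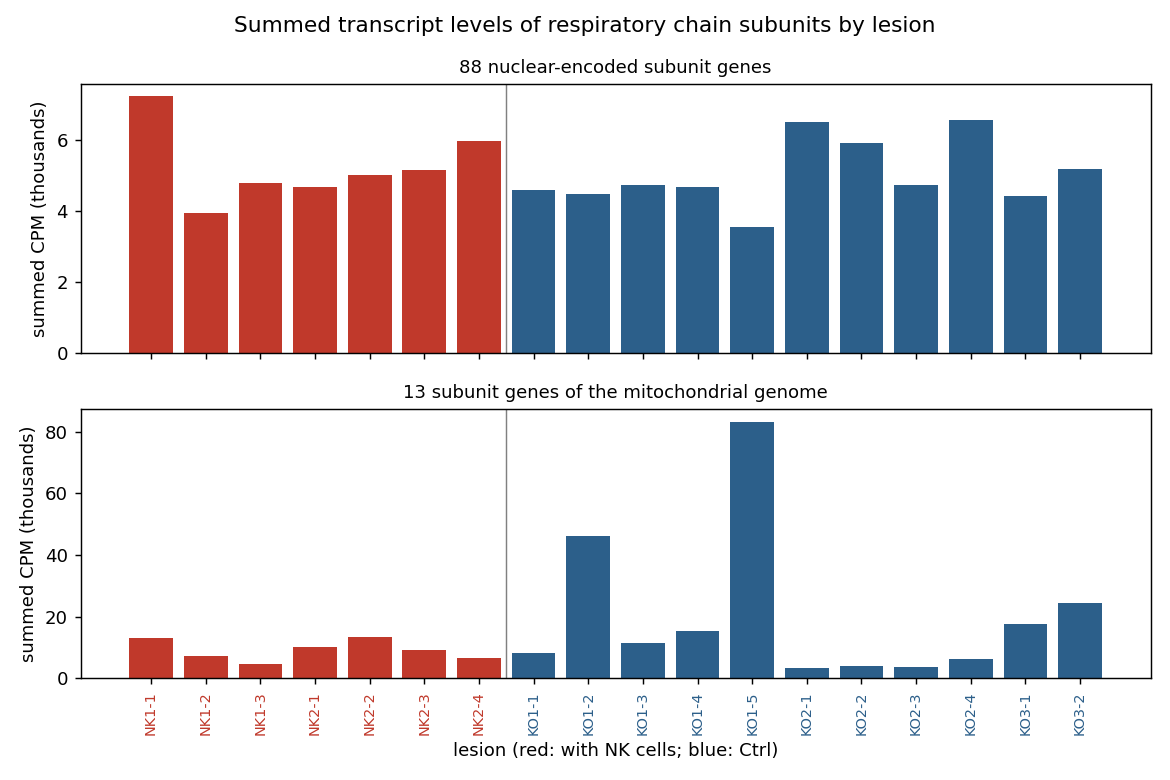
Summed CPM divided by 1000 (vertical axes, from 0) of the 88 nuclear members (top) and of 13 mRNAs of the mitochondrial genome (bottom) in each lesion (horizontal axis; red bars with NK cells, blue bars Ctrl). The top panel spans 3545 to 7224 CPM and the bottom panel 3485 to 83290 CPM.

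Other genes of mitochondrial energy supply gave no call for NK against Ctrl either (edgeR, 0 in each of the following lists). Assembly factors of the complexes had positive values in 27 of 46 tested genes (median log2 fold change 0.12), and electron carriers and feeders, such as the cytochrome c gene Cycs (0.29 ± 0.49) and Cyc1 (0.19 ± 0.35), in 10 of 20 (0.04). Genes of the citric acid cycle stood at 13 of 19 (0.24), glycolysis at 8 of 16 (-0.01), and mitochondrial ribosomal proteins at 34 of 78 (-0.04). Cytosolic ribosomal proteins, a list of abundant messages with no tie to respiration, stood at 51 of 99 (0.05). Hypoxia-linked genes stood at 10 of 12 (0.66); their deviation was 1.56 in NK1-1 and at most 0.62 in the other lesions, with Bnip3 at 80.2 CPM there and at most 9.68 CPM elsewhere. Regulators of mitochondrial biogenesis stood at 9 of 18 (-0.01), among them the coactivator gene Ppargc1a with 0 to 6.61 CPM and the factor gene Nrf1 with 5.87 to 164 CPM, the highest in KO3-2.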

How the data were processed

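RNA-seq of 18 lesions was analysed from the deposited gene table. The submitters' processing notes name mm10 and 4 tools: RSEM 1.2.28, STAR, bcl2fastq 2.17 and DESeq2. The table holds expected counts that the authors deposited without scaling, rounded here to whole numbers. A table of log2 values that the authors had normalized served as an alternative; its transformation and the strand handling are not given in the sources used here. There were 0 further columns of sample values. Of 49585 identifiers, 49326 matched a symbol and 26158 had a count. All 88 members matched, 1 of them (Atp5md) through an older symbol. Exons of 27 members overlap exons of a gene on the other strand, and reads of both cannot be told apart without strand; pseudogenes and near-identical copies are uncertain too.

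The mouse was the replicate: counts were summed per mouse and tested with edgeR 4.0.16 (R 4.3.3, robust quasi-likelihood, TMM, filterByExpr with minimum count 10 and minimum total 15), with Benjamini-Hochberg adjustment over 16917 genes and a threshold of 0.05. A test over 18 lesions compared the 5 mice (15741 genes). Lesions of a mouse are separate captures, so p-values between mice set the differences between mice against the spread among their lesions. No pair of lesions of the same mouse agreed within sampling noise. Standard errors of fold changes were derived from F (absolute log2 value over the root of F). CPM uses TMM-scaled libraries, and log2 CPM a prior count of 2. Alternatives used DESeq2 1.42.0, limma 3.58.1, other scalings and filters, and left-out lesions and mice. Coordinates are GRCm38 (GENCODE M21); promoters are from RefSeq (GRCm38.p6), with 67 of 88 members matched.

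Members, lists and the rule for named genes were chosen with earlier results of these data known. The rule took members past the threshold, the 2 smallest p in each direction in complexes I, III, IV and V, the Sdh genes, the highest and lowest level in each complex, and the isoform, partner and c subunit genes. Other members are named from their values or as examples.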

Additional observations from a re-analysis of the deposited data

Results flagged for a closer look

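Among the 7 NK lesions, NK1-1 stood apart from the others for 7 of the 43 members and lists checked. In each, the gap took up more of the whole range than Dixon's 95% limit allows. This limit assumes independent values, with a chance rate of about 1 in 20 groups. The lesions come from 2 mice and the flagged members share the lesion, so that rate does not apply. Atp5md, Cox7b and Ndufb4 had met the naming rule for a small p with higher values, which NK1-1 itself raised. Their flags are no separate support. Atp5md had 109.0 CPM there, with a gap to the next NK lesion of 0.883 of the range, and Ndufa4 had 205.2 against 85.5 CPM. Cox7b had 87.9 against 34.7 CPM and Ndufb4 13.2 against 2.9 CPM. The muscle isoforms Cox8b (3.0 against 0.1 CPM), Cox6a2 (2.5 against 0.3 CPM) and Cox7a1 (0.8 against 0.3 CPM) were low in all NK lesions. Cox7a1 had 5 counts in NK1-1 and also 5 in NK2-4. Its gap in CPM came from scaled library sizes of 6304937 and 17388824, so its flag does not set NK1-1 apart. The Ctrl group, with 11 lesions, was not examined in this way.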

How the results depend on the processing

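No paired analysis was possible because each mouse received only 1 treatment. For NK against Ctrl, 0 genes were called as reported; DESeq2 called 21, no filter on low counts 224 and 1 member (Uqcr10), and leaving out mice or lesions 0 to 4, with 4 without mouse NK2, where the lone NK mouse is assumed to vary like the others. The median log2 fold change of members ran from -0.11 (without NK1-1) to 0.28 (without mouse KO2), within 1 SD between mice. Complex III gave -0.18 without NK1-1 and from -0.18 to 0.18 over left-out lesions and mice (0.18 without KO2). Both ends lay more than 1 SD between mice (0.15) from the reported -0.01. Complex IV gave -0.26 without NK1-1 and from -0.26 to 0.14 over left-out lesions and mice. The low end lay more than 1 SD between mice (0.17) from the reported 0.03. Between mice, members called were 4 with RLE size factors (5%, all genes 8.39%), 4 with no filter (4.65%, all genes 5.62%) and 9 without NK1-1 (11.2%, all genes 9.25%), and 1 to 12 over left-out lesions (12 without KO3-1, 14.5%, all genes 13.7%); genes called were 584 (without KO3-2) to 2381 (without KO3-1). The causes were not tested. Of 31 named members with a value in all 33 alternatives, 12 kept their sign in all. Low counts limit NK1-3 most, with 6506 counts of members.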
